A study of Mus musculus with 6 samples.

Results

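The genes described here carry glucose into the cell and through glycolysis, lactate export, the pyruvate dehydrogenase kinases and the pentose phosphate pathway. They were named from the known biochemistry of the pathway, 35 in all, and each was followed through 1 probe set, chosen as that of highest mean log2 intensity over the 6 arrays. Of the 35, 32 had a probe set that names them alone, among 18194 genes in all. Gpi1, Eno1 and G6pdx were not analysed here.

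Glucose enters blood cells through facilitative transporters, is trapped by hexokinases, is committed to glycolysis by phosphofructokinase, and ends as pyruvate. Pyruvate is either reduced to lactate and exported with a proton, or sent into the mitochondrion by pyruvate dehydrogenase, which the pyruvate dehydrogenase kinases switch off. The pentose phosphate pathway branches from glucose 6-phosphate and supplies NADPH and ribose. Neutrophils and their precursors are known to rely heavily on glycolysis, and several of the enzymes are known targets of the hypoxia-inducible factors and of MYC.

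The 6 arrays compared leukemias of C57BL/6 origin driven by MLL-ENL, a fusion oncoprotein. The 3 arrays labelled Runx1-KO came from marrow in which Runx1, a transcription factor of blood stem cells and megakaryocytes, had been excised. The 3 labelled Control came from marrow with Runx1 intact. Both groups carried MLL-ENL, were grown in congenic recipients and were collected when these were moribund, and each array was an independent leukemia. How Runx1 was excised, and the age and sex of donors and recipients, are not given in the sources used here, and recipient cells may be among those harvested.

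Median intensity per array was 24.4 to 26.0, and 57.4% to 64.7% of all genes lay above a background limit of 14.1 to 22.5, set by spike-in probe sets without target. Runx1 itself gave 1128, 1573 and 1629 in Runx1-KO 1, 2 and 3, against 680.3, 1021 and 850.0 in Control 1, 2 and 3. The Runx1-KO-labelled arrays were thus the higher ones, and since the position of the probe set relative to the excised part was not given in the sources used here, this checks nothing about the labels. Xist, the X-inactivation RNA of female cells, gave 1624, 1857 and 1895 in the Runx1-KO-labelled arrays, against 330.8, 85.4 and 25.3 in Control, while Y-linked Eif2s3y gave 5.29, 6.31 and 3.98 against 683.6, 638.0 and 706.7. Sex and genotype therefore cannot be told apart in any difference between the groups given below, those of autosomal Slc2a3 and Hk3 included. The measured members Pgk1 and Pdk3 are themselves X-linked. Summed intensity of mature neutrophil markers, of which 14 of 15 were higher, was 19204 to 22194 in the Runx1-KO-labelled arrays and 10628 to 16416 in Control. Monocyte and macrophage markers, of which 15 of 17 were lower, summed to 6284 to 8415 in the Runx1-KO-labelled arrays and 9361 to 11836 in Control, with the macrophage genes C1qb and Adgre1 above the limit on all 6 arrays and C1qa below it on all 6. Megakaryocyte and platelet markers, of which 11 of 12 were higher, summed to 857.9 to 1373 in the Runx1-KO-labelled arrays and 510.0 to 758.2 in Control. T and NK cell markers, of which 10 of 12 were lower, summed to 169.4 to 207.9 in the Runx1-KO-labelled arrays and 200.7 to 316.3 in Control. Of these 12, 3 were above the limit in each Runx1-KO-labelled array, and 9, 7 and 3 in Control 1, 2 and 3. Their median log2 difference was -0.90, and -0.15 with dim values set to the limit. B cell markers, of which 8 of 11 were higher, summed to 384.5 to 629.0 in the Runx1-KO-labelled arrays and 395.1 to 541.5 in Control. Erythroid markers summed to 125.8 to 278.3 in the Runx1-KO-labelled arrays, and to 5390 in Control 1 against 150.7 and 186.4 in the other Control arrays. The part of these cell mixtures in the results below was not tested, and in bulk RNA fewer cells of a type and less RNA per cell cannot be told apart. In Runx1-KO 1 the Gapdh signal ratio of 3' to 5' probe sets was 7.10, against 2.67 to 2.81 in the other arrays labelled Runx1-KO and 2.77 to 3.02 in Control. The same ratio for Actb did not stand apart: it was 1.11, 1.10 and 1.03 in Runx1-KO 1, 2 and 3, and 1.03 to 1.09 in Control.

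The 250 bases before the start of transcription were read for 34 of the 35 genes, all but Slc2a3, from RefSeq (GRCm38.p6), in 51 windows. The letters ACGTG, the core that hypoxia-inducible factors bind, were searched on both strands and stood in 19 of the 51 windows (37.3%, 15 genes), against 16.6% of all 32851 windows of that length. The RUNX core, TGTGGT or TGCGGT, stood in 8 (15.7%) against 18.6% of all windows. The E-box CACGTG, which MYC and USF proteins bind and which contains ACGTG, stood in 6 (11.8%) against 6.02%. Windows of 1 gene can overlap, and windows were not matched on base composition, so these shares are descriptions. The windows printed are those of Hk3, the hexokinase with the lowest p; of Slc2a1, the transporter beside Slc2a3; and of Ldha and Pgk1, enzymes that hypoxia-inducible factors are known to induce. Capitals mark ACGTG or CACGTG, the RUNX core, and, as CACGT and ACCACA, the same letters on the other strand. The windows lie at chr13:55021386-55021635 (minus strand) for Hk3, chr4:119108495-119108744 (plus) for Slc2a1, chr7:46845554-46845803 (plus) for Ldha and chrX:106186850-106187099 (plus) for Pgk1.
Hk3: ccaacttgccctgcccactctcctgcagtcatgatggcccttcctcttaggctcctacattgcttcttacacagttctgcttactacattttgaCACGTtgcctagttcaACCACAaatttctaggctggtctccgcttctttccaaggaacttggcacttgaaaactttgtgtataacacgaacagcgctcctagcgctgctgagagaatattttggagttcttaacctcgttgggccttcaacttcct
Slc2a1: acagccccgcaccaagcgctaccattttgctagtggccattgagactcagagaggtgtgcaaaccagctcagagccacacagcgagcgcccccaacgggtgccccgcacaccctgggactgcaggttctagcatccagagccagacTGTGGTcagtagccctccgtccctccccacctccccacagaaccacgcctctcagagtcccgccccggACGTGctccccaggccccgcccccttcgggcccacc
Ldha: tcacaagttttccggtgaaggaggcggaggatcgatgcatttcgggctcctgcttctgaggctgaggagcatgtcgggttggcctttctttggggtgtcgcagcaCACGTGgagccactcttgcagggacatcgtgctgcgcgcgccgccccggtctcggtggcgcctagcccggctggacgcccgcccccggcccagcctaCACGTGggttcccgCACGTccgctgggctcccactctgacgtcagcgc
Pgk1: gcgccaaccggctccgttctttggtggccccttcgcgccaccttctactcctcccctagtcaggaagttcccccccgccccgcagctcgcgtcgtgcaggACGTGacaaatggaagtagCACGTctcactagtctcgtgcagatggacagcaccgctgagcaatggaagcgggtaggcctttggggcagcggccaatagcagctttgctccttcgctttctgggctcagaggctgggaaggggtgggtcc

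A RUNX core stood 140 bases before the start of Hk3 and 104 before that of Slc2a1, and the other windows printed held none. The printed Ldha window held E-boxes 48 and 145 bases before the start. The other window of Ldha, at chr7:46846832-46847081 (plus), was not printed and held none of the letters searched.

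None of the 32 genes passed an adjusted p of 0.05 in limma, a moderated linear model on log2 intensity, where 0.0879% of all genes did (16 of 18194), 0.033% higher and 0.055% lower in the Runx1-KO-labelled arrays. At an adjusted p under 0.1 it was 0.198%, and 1 member, Slc2a3. At an unadjusted p under 0.05, 2 of 32 members (6.25%) passed, against 12.6% of all genes. These were Slc2a3, higher in the Runx1-KO-labelled arrays as 5.62% of all genes were, and Hk3, lower as 7.01% were. The groups did not overlap for 6 of 32 members (18.8%), against 20.9% of all genes: Slc2a3 and Pgk1 were higher (9.17% of all genes), and Hk3, Pfkl, Gapdh and Pgam1 lower (11.7%). In sign, 12 members (37.5%) were higher and 20 lower, where 49.2% of all genes were higher, with a median log2 difference of -0.10, against -0.0080 over all genes. Of the 9703 genes above the limit on every array, 43.3% were higher, with a median of -0.059. Most differences were small: 26 of 32 (81.3%) were under 0.5 in size, against 69.5% of all genes and 77.2% of those 9703. Beyond 1 in size, which is a change of over 2-fold, stood only Slc2a3 (3.13% of members, against 8.39% of all genes and 4.70% of those 9703). Leaving Slc2a3 aside, the differences of the other 31 ran between -0.88 and 0.98, with a lowest adjusted p of 0.322.

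**Figure D1:**
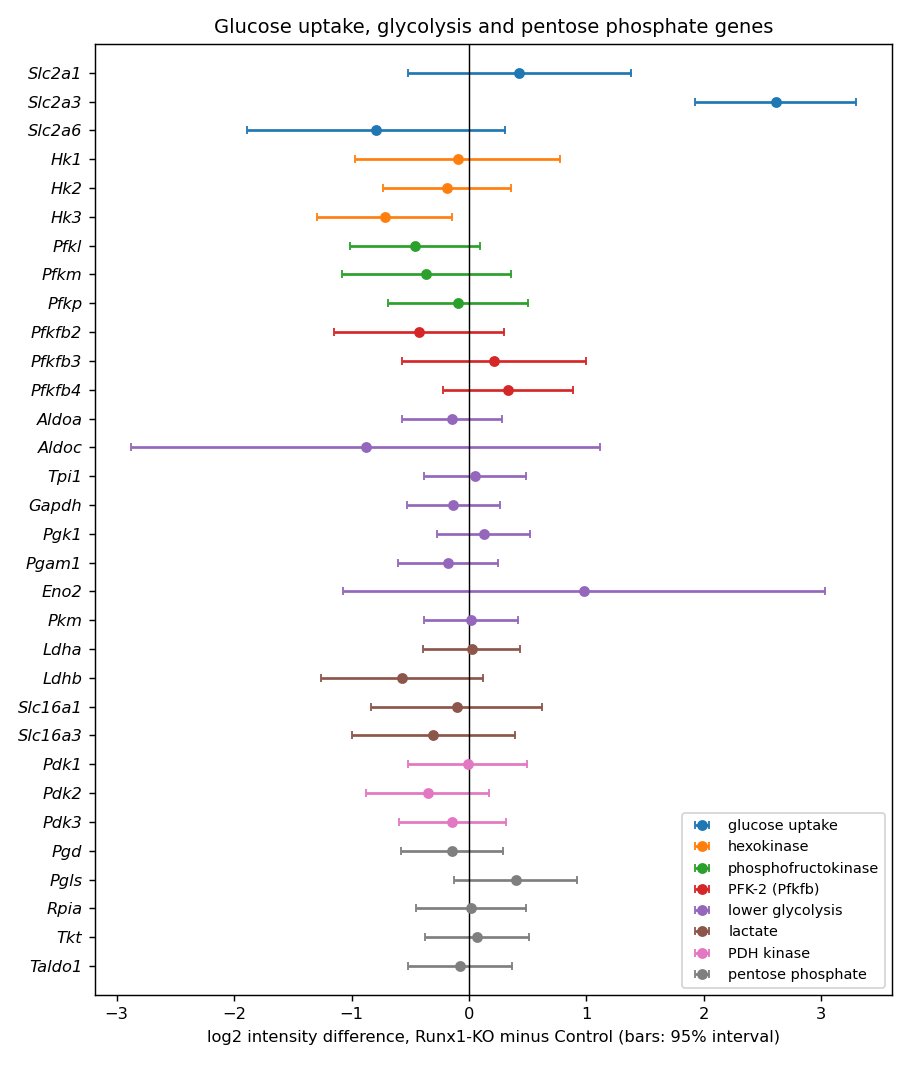
Log2 difference of each of the 32 measured genes, Runx1-KO minus Control, with the 95% interval of the limma fit, grouped by role in the pathway. Slc2a3, at 2.61, stands apart from the other genes, which lie between -0.88 and 0.98.

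Among the transporters, Slc2a3 (probe set 1437052_s_at), which encodes GLUT3, a glucose transporter with high affinity for its substrate, gave 360.0, 311.8 and 209.1 in the Runx1-KO-labelled arrays, against 36.9, 52.5 and 53.2 in Control. Every array labelled Runx1-KO was above every Control array. The log2 difference was 2.61 ± 0.28 (SE; 95% interval 1.92 to 3.30), a 6.11-fold higher level, with a limma adjusted p of 0.0593 over all genes, so it did not pass. By p it ranked 22 of 18194 genes. The summed mature neutrophil markers and the summed megakaryocyte and platelet markers were also higher in every Runx1-KO-labelled array than in every Control array, as given above, and their part in this difference was not tested. All probe sets of the gene gave the same order of groups: 4 of 4, the chosen one included, were higher without overlap. The chosen one differed by 2.61 and the others by 2.54, 2.13 and 0.90. Probe set 1421924_at gave 124.7, 120.6 and 100.8 in the Runx1-KO-labelled arrays, against 21.3, 17.8 and 20.2 in Control, 5.83-fold higher, with an adjusted p over all probe sets of 0.0306. Its Control values lay near the background limits (17.0, 14.1 and 22.5 in Control 1, 2 and 3), and Control 3 was below its limit. The weakest, 1427770_a_at, was 1.86-fold higher with an adjusted p of 0.371, and was below the limit in Control 1. The call depended on the model: the adjusted p of Slc2a3 was under 0.05 in 5 of 17 alternatives, and it ran between 0.00954 and 0.337.

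Slc2a1, which encodes GLUT1, the transporter of most growing cells, gave 418.5, 947.0 and 386.8 in the Runx1-KO-labelled arrays, against 467.5, 318.4 and 422.2 in Control. The groups overlapped, and Runx1-KO 2 alone was high. The difference was 0.43 ± 0.39 (SE; 95% interval -0.52 to 1.37), and without Runx1-KO 2 it was 0.017. Its 3 probe sets all were higher, by 0.39 to 0.45. Slc2a6, a transporter of the same family, gave 59.3, 151.4 and 62.4 in the Runx1-KO-labelled arrays, against 154.5, 96.3 and 195.3 in Control. Its difference was -0.79 ± 0.45 (SE; -1.89 to 0.31), and -1.23 without Runx1-KO 2, the array in which Slc2a6 and Slc2a1 were both highest of their group. Slc2a6 was named after its values were seen.

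**Figure D2:**
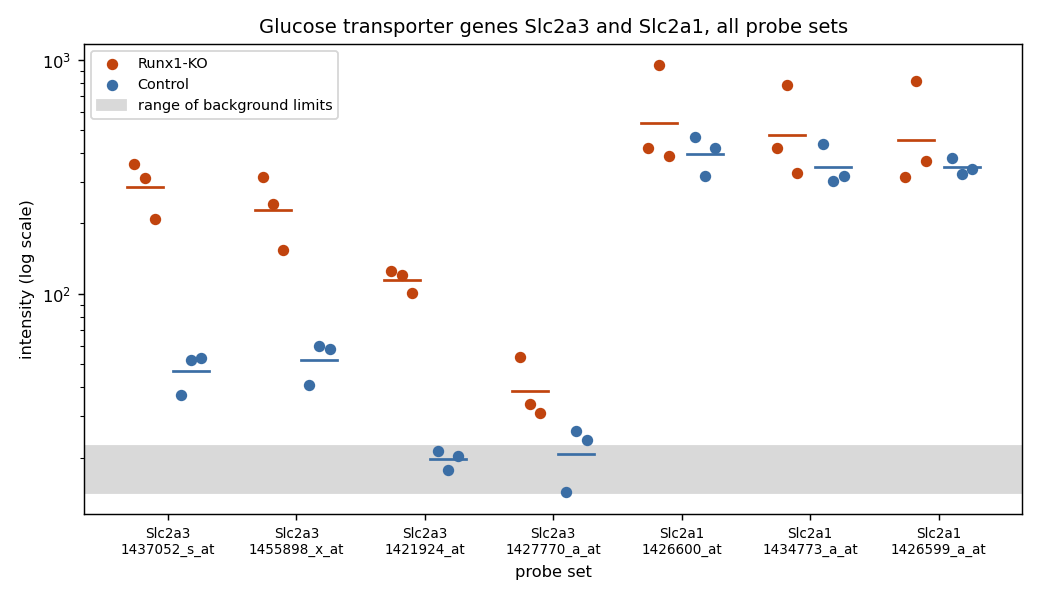
Intensity on a log axis of every probe set of Slc2a3 and Slc2a1, Runx1-KO left of Control, with points for arrays, lines for group means on the log scale and a grey band for the background limits (14.1 to 22.5). The 4 Slc2a3 probe sets separate the groups, while the 3 Slc2a1 probe sets overlap and share their high value in Runx1-KO 2.

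Of the hexokinases, which phosphorylate glucose and so keep it in the cell, Hk3, an isozyme of myeloid cells, gave 1135, 690.7 and 920.0 in the Runx1-KO-labelled arrays, against 1574, 1500 and 1362 in Control. All 3 arrays labelled Runx1-KO lay below all 3 Control arrays. The difference was -0.72 ± 0.24 (SE; 95% interval -1.29 to -0.15), 1.65-fold lower, with an unadjusted p of 0.0216 and an adjusted p of 0.322. Its other probe set differed by -0.80, also without overlap. Monocyte and macrophage markers were lower in the same arrays, as given above, and their part in this difference was not tested. Hk2, the inducible hexokinase bound to mitochondria, gave 1258, 1120 and 1509 in the Runx1-KO-labelled arrays, against 1709, 1523 and 1203 in Control. These groups overlapped, with a difference of -0.19 ± 0.22 (-0.73 to 0.36). Hk1, the housekeeping isozyme, differed by -0.097 ± 0.36.

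The phosphofructokinase subunits, which catalyse the committed step, were all lower by value. Pfkl, the liver-type subunit, gave 137.2, 112.8 and 134.9 in the Runx1-KO-labelled arrays, against 170.4, 221.5 and 143.8 in Control. No array labelled Runx1-KO reached the lowest Control array, but the difference of -0.46 ± 0.23 (SE; -1.01 to 0.09) had an adjusted p of 0.459, and its 3 probe sets differed by -1.32, -0.46 and 0.018. Pfkm, the muscle type, differed by -0.36 and Pfkp, the platelet type, by -0.094. The bifunctional enzymes that make and break fructose 2,6-bisphosphate, the activator of phosphofructokinase, went both ways: Pfkfb2 by -0.43, Pfkfb3 by 0.21 and Pfkfb4 by 0.33.

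The lower part of glycolysis was split evenly in sign, 4 genes higher and 4 lower, with a median of -0.058. Gapdh, the enzyme that oxidises glyceraldehyde 3-phosphate, gave 4112, 3837 and 3899 in the Runx1-KO-labelled arrays, against 4315, 4476 and 4199 in Control. The groups did not overlap, yet the difference was only -0.13 ± 0.16 (SE; -0.53 to 0.26). Its probe set is the array's control for the 3' end of the transcript, and that for the 5' end differed by -0.53, the ends being the ones whose ratio stood apart in Runx1-KO 1. X-linked Pgk1, which makes the first ATP of the pathway, gave 2788, 2749 and 2883 in the Runx1-KO-labelled arrays, against 2660, 2477 and 2590 in Control. Here too the groups did not overlap, and the difference was 0.12 ± 0.16 (SE; -0.27 to 0.52), with 3 of 3 probe sets higher by 0.12 to 0.29. Pgam1, phosphoglycerate mutase, gave 3103, 2626 and 3131 in the Runx1-KO-labelled arrays, against 3242, 3345 and 3409 in Control, a difference of -0.18 ± 0.17 (SE; -0.60 to 0.24), again without overlap. Pkm, pyruvate kinase, gave 1855, 1870 and 1992 in the Runx1-KO-labelled arrays, against 1922, 1941 and 1789 in Control, and differed by 0.017 ± 0.17 (-0.38 to 0.42). These groups overlapped.

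Aldoa, the main aldolase, differed by -0.15 and Tpi1, triose phosphate isomerase, by 0.050. Aldoc and Eno2, isozymes best known from nerve cells, were near the limit and were named after their values were seen. Aldoc gave 67.8, 6.85 and 11.5 in the Runx1-KO-labelled arrays, above the limit in 1 of 3, against 27.3, 36.8 and 33.0 in Control, above it in 3 of 3. The groups overlapped, with Runx1-KO 1 the highest array, and the difference was -0.88 ± 0.82 (SE; 95% interval -2.87 to 1.12, limma adjusted p = 0.701). With the dim arrays set to their limits the Runx1-KO mean was 1.10-fold lower, which allows for the floor but not for the spread between arrays. Eno2 gave 2.60, 25.9 and 5.82 in the Runx1-KO-labelled arrays and 5.01, 2.24 and 4.54 in Control, above the limit in Runx1-KO 2 alone, so no fold is given. For 9 enzymes picked after their values were seen (Aldoa, Tpi1, Gapdh, Pgk1, Pgam1, Pkm, Ldha, Pgd and Tkt), the differences lay between -0.18 and 0.12. Their 95% intervals lay within -0.60 to 0.52, and adjusted p-values ran between 0.715 and 0.977.

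**Figure D3:**
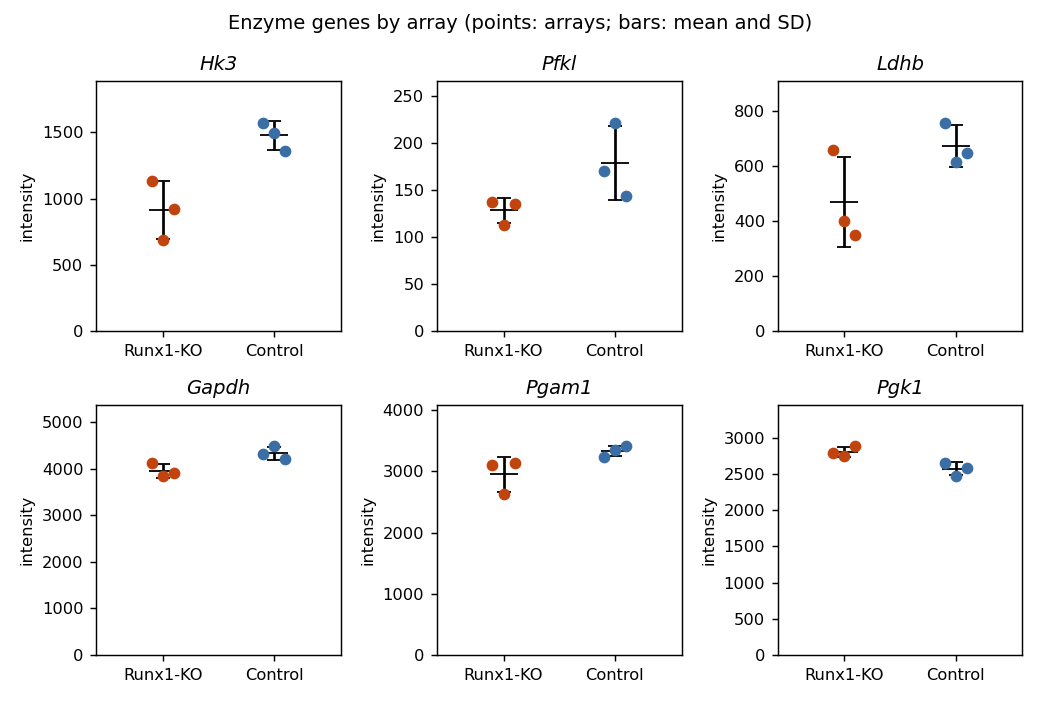
Intensity by array of Hk3, Pfkl, Ldhb, Gapdh, Pgam1 and Pgk1, Runx1-KO left of Control, on linear axes that start at 0, with points for arrays and bars for the mean and SD. The groups separate in every panel but that of Ldhb, and by little for Gapdh, Pgam1 and Pgk1.

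Ldha, the lactate dehydrogenase subunit that favours lactate formation, gave 3301, 2852 and 3100 in the Runx1-KO-labelled arrays, against 3055, 3138 and 2902 in Control, with a difference of 0.023 ± 0.17 (SE; -0.39 to 0.44) and overlap. Ldhb, the subunit of oxidative tissues, was named after its values were seen and gave 656.5, 399.5 and 349.2 in the Runx1-KO-labelled arrays, against 755.9, 612.9 and 646.5 in Control. Runx1-KO 1 lay inside the Control values and the other arrays below them, with a difference of -0.57 ± 0.28 (SE; -1.26 to 0.12) and 4 of 4 probe sets lower. The monocarboxylate transporters Slc16a1 and Slc16a3, which move lactate across the membrane, differed by -0.10 and -0.30. The pyruvate dehydrogenase kinases, which hold pyruvate back from the mitochondrion, differed by -0.013 for Pdk1, -0.35 for Pdk2 and -0.14 for X-linked Pdk3. None of these had an adjusted p below that of Ldhb, 0.459.

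In the pentose phosphate pathway the median difference was 0.014. Pgd, the second NADPH-producing dehydrogenase, differed by -0.14, Pgls, the lactonase before it, by 0.40 (95% interval -0.13 to 0.92), Rpia, the ribose phosphate isomerase, by 0.014 and Taldo1, transaldolase, by -0.077. Tkt, transketolase, differed by 0.068 through its chosen probe set. A dimmer probe set of Tkt, 1436605_at, singled out after its values were seen, gave 146.9, 193.4 and 172.5 in the Runx1-KO-labelled arrays, against 43.5, 63.6 and 69.5 in Control, a difference of 1.56 with an adjusted p over all probe sets of 0.156. Tkt probe sets thus differed in size, and 6 of the 18 members with several probe sets had them in both directions (Hk1, Pdk1, Pfkfb2, Pfkl, Pfkp and Slc16a1).

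**Figure D4:**
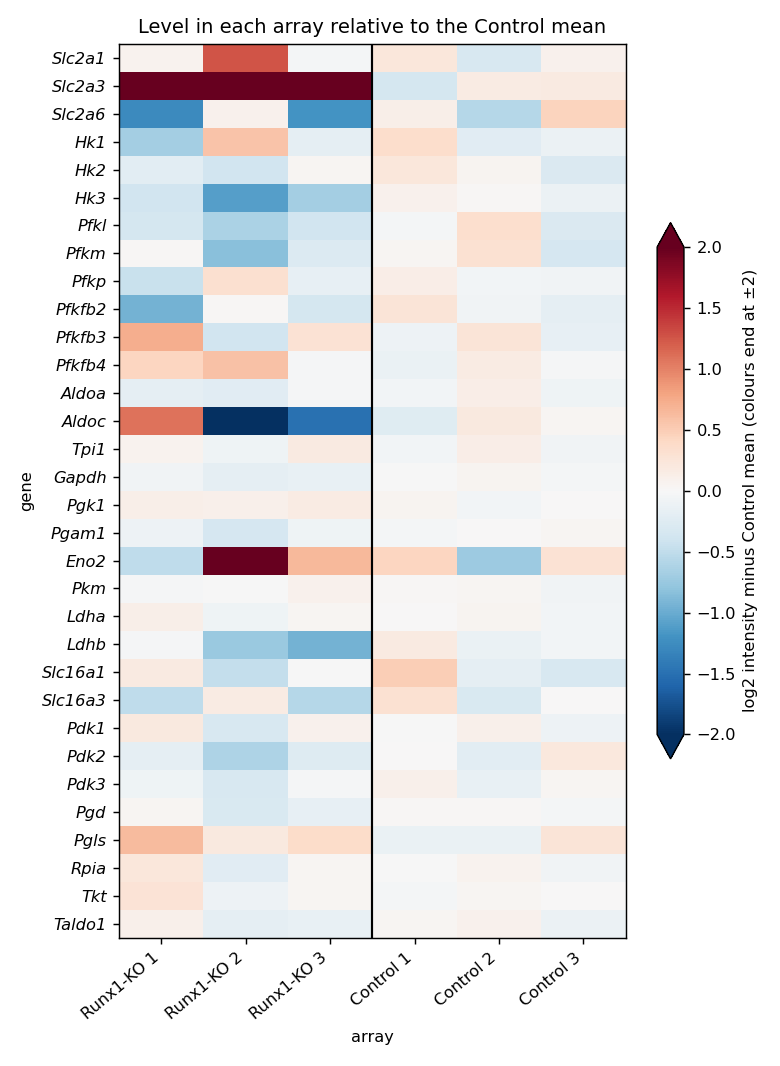
Log2 intensity of each measured gene in each array minus its mean over the Control arrays, with Runx1-KO columns left of Control columns. Runx1-KO 2 is the lowest of the 6 arrays for 19 of 32 genes, and Slc2a3 is the row that is high in all 3 Runx1-KO columns.

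Arrays of the same label differed among themselves. Runx1-KO 2 was the lowest of the 6 arrays for 19 of 32 members (59.4%), where it was lowest for 23.9% of all genes. All genes include 5434 that were above the limit on no array, while no member was so dim, so the 2 shares are not matched on level. The median deviation of the members from the Control mean was -0.0014, -0.17 and -0.031 in Runx1-KO 1, 2 and 3, against 0.024, 0.028 and -0.056 in Control 1, 2 and 3. The SD was wider among arrays labelled Runx1-KO for 25 of 32 members (78.1%), as it was for 62.4% of all genes. The members' intensities summed to 34527, 30662 and 32895 in the Runx1-KO-labelled arrays, against 34691, 34749 and 32903 in Control.

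Balance between isozymes was compared in 8 pairs as a log2 ratio within each array, with a two-sided exact permutation test whose smallest possible p with 3 arrays against 3 is 0.1. The ratio of Slc2a3 to Slc2a1 was 2.18 ± 0.51 (SE, n = 3 each) higher in the Runx1-KO-labelled arrays, without overlap (exact p = 0.1, adjusted over the 8 pairs 0.4). That of Hk3 to Hk2 differed by -0.53 ± 0.21, also without overlap (exact p = 0.1, adjusted 0.4). That of Ldhb to Ldha differed by -0.59 ± 0.26 with overlap (exact p = 0.2, adjusted 0.533). In the other 5 pairs the exact p ran between 0.4 and 1. No pair could pass the threshold in this design.

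Of the genes around the pathway, in 5 further lists, none passed the adjusted p of 0.05. Among other isozymes and transporters, 7 of 23 were higher and 16 lower (median -0.25, and 0.048 with the dim genes at their limit). Eno3, the muscle enolase, gave 60.5, 51.2 and 59.5 in the Runx1-KO-labelled arrays, against 43.4, 32.6 and 40.1 in Control (0.57 ± 0.20, adjusted p = 0.339), without overlap. In this list 3 of 23 genes were higher and 2 lower without overlap (20.9% of all genes, either direction). Ldhc, the testis lactate dehydrogenase subunit, gave 13.2, 9.33 and 7.14 in the Runx1-KO-labelled arrays and 4.80, 6.72 and 5.36 in Control, below the limit on every array. Around pyruvate dehydrogenase and mitochondrial entry, 6 of 11 were higher and 5 lower (median 0.0026). Pdpr, the regulatory subunit of pyruvate dehydrogenase phosphatase, gave 187.7, 154.4 and 138.7 in the Runx1-KO-labelled arrays, against 252.2, 206.7 and 211.9 in Control (-0.49 ± 0.20, adjusted p = 0.400). Pdhx, a structural subunit of the complex, gave 31.8, 15.95 and 32.5 in the Runx1-KO-labelled arrays, above the limit in 2 of 3, against 43.0, 33.7 and 46.1 in Control (-0.67 ± 0.33, adjusted p = 0.455). Neither gene's groups overlapped, where 1 of the 11 genes was higher and 4 were lower without overlap (20.9% of all genes, either direction).

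Among genes of glycogen and hexose side branches, 8 of 15 were higher and 7 lower (median 0.20, and -0.11 without both arrays numbered 1). The 2 of lowest p were both lower. Pygb, the brain glycogen phosphorylase, gave 156.5, 98.0 and 102.0 in the Runx1-KO-labelled arrays, against 214.0, 195.1 and 204.8 in Control (-0.82 ± 0.24, adjusted p = 0.287). Pgm3, which supplies hexosamines, gave 95.3, 73.5 and 57.8 in the Runx1-KO-labelled arrays, against 108.6, 162.8 and 106.3 in Control (-0.74 ± 0.28, adjusted p = 0.367). Neither pair of groups overlapped, where 3 of the 15 genes were lower without overlap and none higher (20.9% of all genes, either direction).

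Regulators of glucose metabolism were 9 higher and 9 lower. Nfe2l2, which encodes NRF2, a transcription factor of the oxidative stress response that also drives pentose phosphate genes, gave 346.7, 375.2 and 467.8 in the Runx1-KO-labelled arrays, against 179.5, 242.7 and 155.6 in Control (1.06 ± 0.24, adjusted p = 0.221). Tigar, a phosphatase that lowers fructose 2,6-bisphosphate, gave 221.4, 148.8 and 182.2 against 395.6, 267.8 and 259.5 in Control (-0.73 ± 0.26, adjusted p = 0.344). In both, the groups did not overlap, where 3 of the 18 genes were higher and 1 was lower without overlap (20.9% of all genes, either direction). Hif1a, the oxygen-regulated subunit of the hypoxia-inducible factor and named after its values were seen, differed by 0.47 ± 0.24 (adjusted p = 0.470).

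Of other hypoxia-responsive genes, 11 of 14 were higher and 3 lower, with a median of 0.28. Vegfa, the endothelial growth factor, gave 695.9, 695.4 and 810.3 in the Runx1-KO-labelled arrays, against 363.7, 351.9 and 320.7 in Control (1.09 ± 0.18, adjusted p = 0.142). Stc2, a secreted glycoprotein induced by hypoxia, gave 20.6, 55.1 and 131.5 in the Runx1-KO-labelled arrays, above the limit in 3 of 3. In Control it gave 4.08, 13.04 and 11.97, below the limit in 3 of 3 (limma adjusted p = 0.287). With the Control arrays set to their limits the Runx1-KO mean was 3.03-fold higher. This allows for the floor but not for the spread between arrays: the 95% interval of the log2 difference was 0.76 to 4.49. Of the pathway members, Ldha and X-linked Pgk1, named as hypoxia targets above, differed by 0.023 and 0.12. Across the 15 members with ACGTG in a window, differences ran between -0.72 for Hk3 and 0.43 for Slc2a1. Slc2a3, at 2.61, had no window read. The part of hypoxia in any of these differences was not tested.

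**Figure D5:**
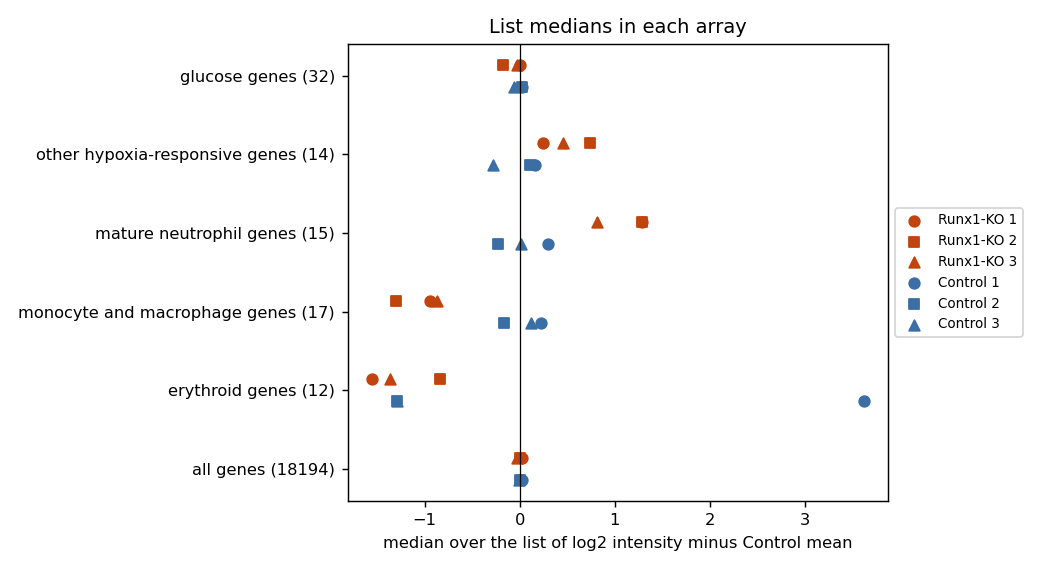
Median log2 deviation from the Control mean of the pathway genes, the hypoxia-responsive genes, 3 marker lists and all genes, with a point for each array and Runx1-KO above Control. The pathway genes stay near 0 (-0.17 to 0.028), while neutrophil markers are high and monocyte markers low in the Runx1-KO-labelled arrays.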

How the data were processed

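Total RNA from 3 leukemias labelled Runx1-KO and 3 labelled Control was measured on a mouse array of 45101 probe sets, after biotin labelling of fragmented cDNA per the labels' protocols. The authors deposited linear intensity values per probe set, with a floor of 1. How the authors summarised, background-corrected and normalized them was not given in the sources used here.

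Gene symbols came from the platform annotation. Only probe sets with a single symbol were used, and each gene was read from its brightest probe set over the 6 arrays, giving 18194 genes. The groups were compared on log2 intensity with limma 3.58.1 (lmFit and eBayes, two-sided) in R 4.3.3, with no covariate and no filter, and Benjamini-Hochberg adjustment over all genes at 0.05. Differences are Runx1-KO minus Control. Each array's background limit was its highest value among 27 spike-in probe sets that had no target. Alternatives were quantile normalization, median centring, an offset of 16, leaving out dim genes or genes below the median level, testing every probe set or averaging them, other variance models, array weights, a threshold of 0.1, the replicate number as a block, and leaving out arrays. The fit was tested on simulated data. The number of arrays limits the precision.

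Values in every array are given for members with an unadjusted p under 0.05 or groups that do not overlap, for the best-known enzymes, and for the 2 genes of lowest p in each further list. Other genes were named after their values were seen. The members and lists were chosen with earlier results of these data known.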

Additional observations from a re-analysis of the deposited data

How the results depend on the processing

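With 3 arrays a group and unknown normalization, a small difference cannot be resolved. Median centring gave 8 genes higher and 11 lower and quantile normalization 6 and 9, with 0 members called in both. The count of all genes past the threshold, 6 higher and 10 lower, moved to 25 and 39 with an offset of 16, 17 and 26 with genes below the median level left out, 12 and 18 over all probe sets, 39 and 65 with a variance trend and robust fitting, 27 and 44 with array weights, 17 and 19 at an adjusted p under 0.1, and to 11 higher with dim genes left out. Leaving out 1 array gave 1 higher and 1 to 2 lower. Leaving out both arrays numbered 1 gave 0 and 0. With the replicate block limma gave 0 and 0 (at an unadjusted p under 0.05, 1 member higher and 1 lower), and Slc2a3 had an adjusted p of 0.337. Same-numbered arrays deviated with correlations of -0.010, -0.093 and 0.039. With 3 arrays a group these cannot tell whether the numbers pair the arrays, and the labels do not say that they do. Slc2a3 was the 1 member called with the offset (difference 2.26, adjusted p 0.0272), dim genes left out (0.0327), genes below the median level left out (0.0182), trend and robust variance (0.00954), array weights (2.30, 0.0399) and at an adjusted p under 0.1. Leaving out 1 array gave it 2.44 to 2.84 with an adjusted p of 0.127 to 0.237. No member was called lower in any of the 18 alternatives, and the member median stayed between -0.15 and -0.045.

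Among single genes and isozyme ratios, signs turned in 33 values of 14 results, none with an adjusted p under 0.05, and 20 of these came from leaving out 1 array. Quantile normalization gave Pdk1 0.031. Array weights gave Pdk1 0.069, Slc16a1 0.010 and Hk2 0.0050. The mean over probe sets gave Hk1 0.078 and Slc16a1 0.069. Without both arrays numbered 1, Hk1 was 0.36, Pfkp 0.14, Pfkfb3 -0.10, Ldha -0.021, Slc16a1 0.00146, Rpia -0.094 and Tkt -0.052. Leaving out 1 array gave Hk1 -0.43 to 0.19, Pfkp -0.30 to 0.081, Pfkfb3 -0.049 to 0.51, Ldha -0.027 to 0.078, Rpia -0.092 to 0.13, Tkt -0.033 to 0.15, Slc16a1 -0.26 to 0.14, Pdk1 -0.11 to 0.14, Tpi1 -0.012 to 0.12 and Pkm -0.020 to 0.039. It gave the ratio of Slc16a3 to Slc16a1 -0.62 to 0.047, of Hk2 to Hk1 -0.36 to 0.34 and of Pfkfb4 to Pfkfb3 -0.30 to 0.33. Of 21 list medians, 9 also turned sign in at least 1 alternative, among them those of lower glycolysis (-0.088 to 0.0075), the pentose phosphate pathway (-0.094 to 0.13), pyruvate dehydrogenase (-0.080 to 0.13), other isozymes (-0.36 to 0.048) and all genes (-0.072 to 0.0096). The cause was not tested.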

Other observations

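Bpgm, which makes 2,3-bisphosphoglycerate in red cells, gave 426.6, 374.4 and 404.6 in the Runx1-KO-labelled arrays, against 1899, 382.9 and 404.1 in Control. Control 1 alone was high, the array in which erythroid markers summed to 5390. Dlat, the acetyltransferase of pyruvate dehydrogenase, gave 333.6, 166.4 and 255.7 in the Runx1-KO-labelled arrays, against 344.1, 375.7 and 355.2 in Control, without overlap (-0.56, adjusted p = 0.467). Pdhb, a subunit of the same complex, gave 569.1, 581.7 and 587.8 in the Runx1-KO-labelled arrays, against 756.7, 736.1 and 685.4 in Control (-0.32, adjusted p = 0.469). Pdha1, its X-linked partner, gave 643.3, 702.9 and 689.8 in the Runx1-KO-labelled arrays, against 568.8, 581.2 and 594.5 in Control (0.22, adjusted p = 0.613), the opposite sign, also without overlap. Phgdh, which draws 3-phosphoglycerate out of glycolysis into serine synthesis, passed the test, with 245.1, 198.7 and 222.9 in the Runx1-KO-labelled arrays against 59.8, 56.3 and 60.0 in Control (limma adjusted p = 0.0423). All genes here were chosen after their values were seen.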
